A study of Mus musculus with 61 samples.

Results

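Shox2, Prkcd, Tcf7l2, Lef1, Zic1, Synpo2, Rgs16 and Ramp3 are 8 genes known for their expression in the thalamus that had high signals on the arrays of the bed nucleus of the stria terminalis (bnst). They were taken as the probe sets annotated to exactly 1 of these genes, which gave 20 probe sets of the 45037 on the array and 8 of the 18193 genes that a probe set names alone. For each gene, values are those of its brightest probe set over all arrays, and the other 12 probe sets are given where their level or a call differs. The genes were chosen because their signals were higher in the bnst than in the other regions, so that difference is given as a description and without a test. RNA of the bnst, the hypothalamus, the periaqueductal gray (pag), the hippocampus and the pituitary gland was measured on 61 Affymetrix mouse 430 2.0 arrays, of which 13 held bnst and 12 held each of the remaining regions. The mice were wild-type males, 8 weeks old, of the inbred strains C57BL/6J, FVB/NJ, DBA/2J, A/J, 129S6/SvEvTac and C3H/HeJ. Each strain had 2 arrays per region, except for 3 of the bnst in C3H/HeJ. All replicate 1 arrays of the bnst pooled tissue of 2 mice and all replicate 2 arrays tissue of 3 mice, so the replicate number and the size of the pool cannot be told apart, and replicate 3 of C3H/HeJ pooled 2 mice. Hippocampal arrays held 1 mouse each, those of the hypothalamus and the pag 2 (1 array of each 1) and those of the pituitary gland 5, so the regions also differ in pool size.

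The mean signal of an array lay between 180.5 and 200.5 and its median between 42.6 and 67.1, and the arrays of a group correlated at 0.974 to 0.998 over all probe sets. The p values of the comparisons of regions and strains measure the spread between arrays of a group, taken as the same in all groups. An array held a pool of tissue or, as in the hippocampus, a single mouse. Some arrays stood apart from others of their region. Replicate 3 of C3H/HeJ in the bnst had little Ttr, the transthyretin of choroid plexus. In the pag, replicate 2 of A/J and of DBA/2J were high for genes of the habenula. Results that rest on these arrays are given with and without them where both were computed.

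The thalamus relays sensory and motor signals to the cortex and lies just behind the bnst, a group of mainly GABAergic nuclei around the stria terminalis. Most relay neurons of the thalamus are glutamatergic and use the vesicular glutamate transporter Slc17a6. Among the 8 genes, Shox2, Tcf7l2, Lef1 and Zic1 encode transcription factors. Shox2 has a homeodomain, Tcf7l2 and Lef1 have the HMG box through which the canonical Wnt pathway with beta-catenin acts on its target genes, and Zic1 has zinc fingers. Prkcd encodes protein kinase C delta, which is abundant in thalamic relay nuclei and also marks a class of GABAergic neurons of the extended amygdala, to which the bnst belongs. Rgs16 shortens the signal of G proteins, Ramp3 accompanies receptors of the calcitonin family to the cell surface, and Synpo2 binds actin.

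The sequences upstream of the genes are shown for the 4 genes in which a core letter pattern of either class of transcription factor was found, because Tcf7l2 and Lef1 bind 1 pattern and homeodomain proteins such as Shox2 the other. RefSeq (build GRCm38.p6) gave 13 start sites for all 8 genes, and the 250 bases before each were searched on both strands for CTTTGA, the core of the sites of TCF and LEF proteins, and for TAATTA, a core of homeodomain sites. Capitals mark the match, which reads TCAAAG where CTTTGA lies on the opposite strand.
Shox2, chr3:66981772-66982021, - strand: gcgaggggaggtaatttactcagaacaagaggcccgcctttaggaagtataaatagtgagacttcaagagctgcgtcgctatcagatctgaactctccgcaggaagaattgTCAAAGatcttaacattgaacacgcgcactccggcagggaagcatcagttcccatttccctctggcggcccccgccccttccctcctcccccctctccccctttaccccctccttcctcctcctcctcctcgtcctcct
Prkcd, chr14:30626209-30626458, - strand: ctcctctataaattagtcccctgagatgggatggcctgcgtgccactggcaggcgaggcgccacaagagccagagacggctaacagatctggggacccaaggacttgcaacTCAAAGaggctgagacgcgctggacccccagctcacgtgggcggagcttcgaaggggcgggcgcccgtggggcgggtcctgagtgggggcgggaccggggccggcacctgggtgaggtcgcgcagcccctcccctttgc
Lef1, chr3:131156044-131156293, + strand: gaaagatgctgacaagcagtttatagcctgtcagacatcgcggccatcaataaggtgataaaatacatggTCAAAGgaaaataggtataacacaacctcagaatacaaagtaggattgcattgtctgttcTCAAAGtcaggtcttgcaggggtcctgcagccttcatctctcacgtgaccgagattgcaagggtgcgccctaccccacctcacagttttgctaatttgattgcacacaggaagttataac
Synpo2, chr3:123236150-123236399, - strand: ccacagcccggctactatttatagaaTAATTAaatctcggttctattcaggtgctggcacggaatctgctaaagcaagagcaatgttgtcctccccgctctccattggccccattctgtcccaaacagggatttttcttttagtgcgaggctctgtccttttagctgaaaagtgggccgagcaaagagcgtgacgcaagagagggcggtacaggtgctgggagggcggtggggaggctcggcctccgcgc
The TCF/LEF core was found before 1 start site each of Shox2, Prkcd and Lef1, which is 3 of the 13 windows, and in 13.8% of all 32851 windows of the same length. In Shox2 and Prkcd the match began 139 bases before the start, and in Lef1, at the most downstream of its 4 start sites, there were 2 matches, 180 and 120 bases before it. TAATTA was found before Synpo2 alone, 224 bases before the start, and in 4.84% of all windows. The patterns do not overlap each other, and a match describes the letters and not the binding of a factor.

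The signals, in arbitrary units on a linear scale, were highest in the bnst for all 8 genes. Shox2 lay between 576 and 1109 on the 13 bnst arrays, with a median of 843, against medians of 324 in the pag, 57.3 in the pituitary gland, 10.5 in the hypothalamus and 10.5 in the hippocampus. Zic1 lay between 1201 and 2111 in the bnst, with a median of 1443, against medians of 538 in the hypothalamus, 285 in the pag, 121 in the hippocampus and 28.8 in the pituitary gland. Both transcription factors had every bnst array above every other array, since the highest signal elsewhere was 408 for Shox2, in the pag of DBA/2J, and 797 for Zic1, in the hypothalamus of C57BL/6J. Tcf7l2 lay between 520 and 905 in the bnst, with a median of 658, against medians of 348 in the pag, 104 in the hypothalamus, 78.4 in the pituitary gland and 46.5 in the hippocampus. Lef1 lay between 123 and 308 in the bnst, with a median of 187, against medians of 54.0 in the pag, 43.4 in the hypothalamus, 35.9 in the pituitary gland and 31.8 in the hippocampus. The factors of the Wnt pathway overlapped with the pag, where 3 arrays exceeded the lowest bnst signal of Tcf7l2 (the highest at 856, A/J replicate 2) and 1 array that of Lef1 (139, C3H/HeJ replicate 1).

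The signalling genes and Synpo2 were separated more widely. Prkcd lay between 797 and 2618 in the bnst, with a median of 1516, against medians of 175 in the hippocampus, 164 in the pituitary gland, 121 in the pag and 104 in the hypothalamus. Ramp3 lay between 657 and 1367 in the bnst, with a median of 874, against medians of 123 in the pituitary gland, 71.2 in the pag, 59.9 in the hippocampus and 51.4 in the hypothalamus. Synpo2 lay between 339 and 936 in the bnst, with a median of 512, against medians of 52.4 in the pag, 47.3 in the hypothalamus, 30.7 in the hippocampus and 25.1 in the pituitary gland. The mean over the bnst arrays was 14.1 times that over the other 4 regions for Synpo2, 11.2 times for Ramp3 and 10.4 times for Prkcd, and no array of another region reached the lowest bnst array in any of them. Rgs16 was different, with signals between 196 and 858 in the bnst and a median of 514, against medians of 218 in the pituitary gland, 162 in the hypothalamus, 34.8 in the hippocampus and 24.1 in the pag. For Rgs16, 9 arrays elsewhere exceeded the lowest bnst array, the highest of them at 380 in the pituitary gland of C3H/HeJ. The hypothalamus reached 233. In all, 5 of the 8 genes had every bnst array above all others, a pattern found in 0.175% of all probe sets, and nothing is read from this because the genes were chosen on the same comparison.

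**Figure D1:**
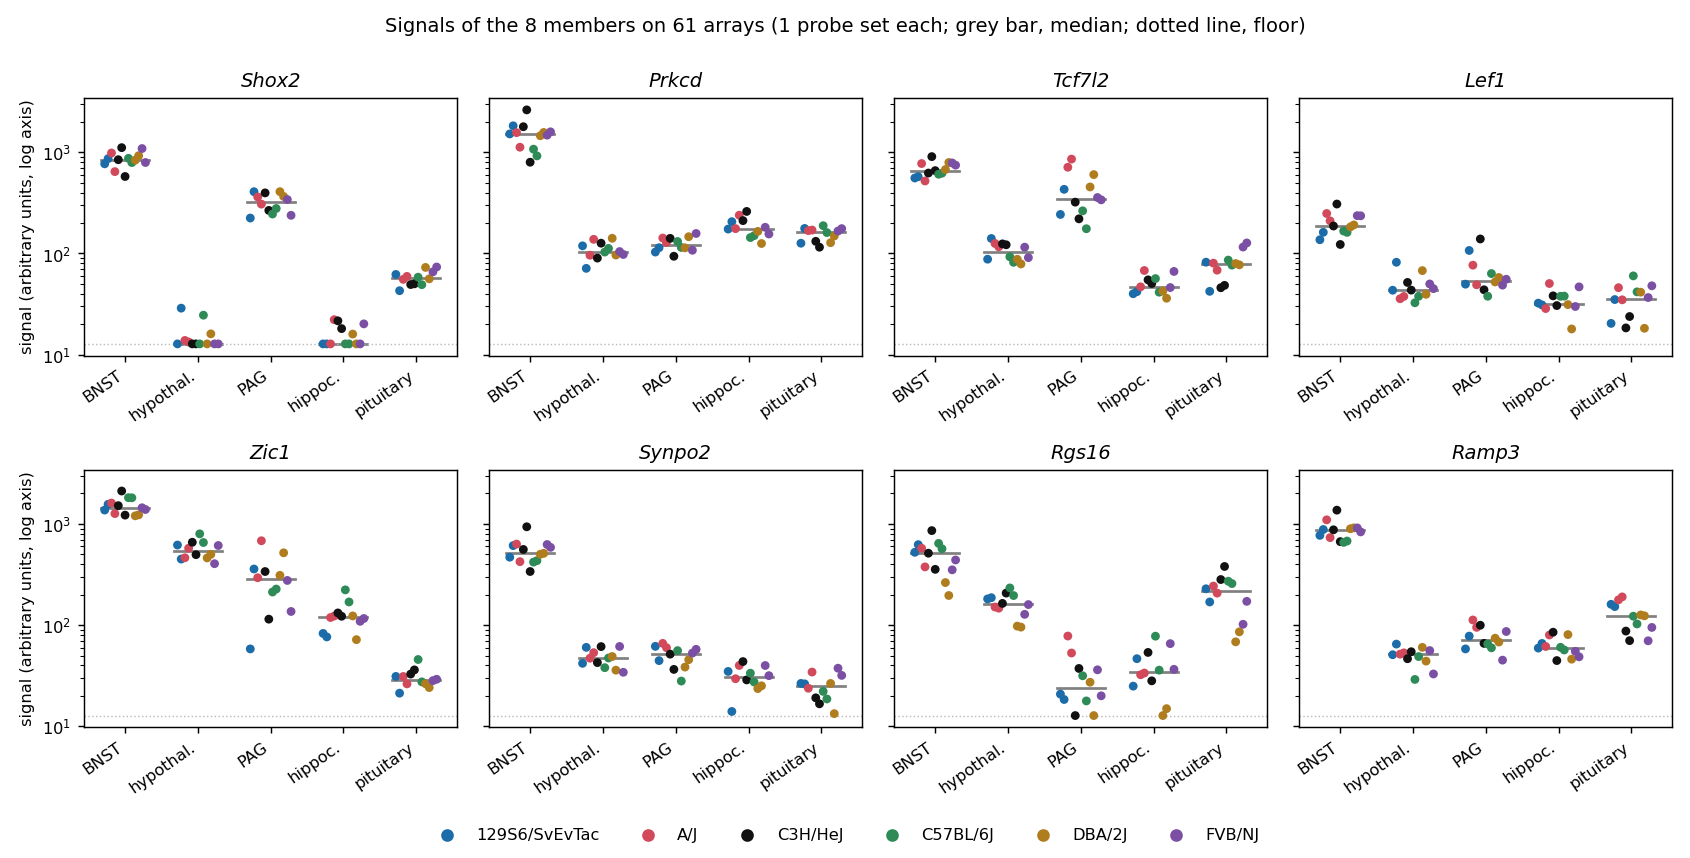
Signals of the 8 genes on 61 arrays, in arbitrary units on a log axis, by region and coloured by strain; grey bars are medians, and signals below 12.8 are drawn at that floor. The bnst arrays stand above all others for Shox2, Prkcd, Zic1, Synpo2 and Ramp3. The pag reaches into the bnst range for Tcf7l2 and Lef1, and the pituitary gland and the hypothalamus do for Rgs16.

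Of the 12 other probe sets, 4 also had every bnst array above all others, namely 1 each of Shox2, Prkcd, Zic1 and Synpo2. A further 6, of Tcf7l2, Lef1 and Rgs16, had a mean in the bnst between 3.61 and 5.78 times that of the other regions and overlapped with them. The remaining pair of probe sets, of Synpo2, were dim and highest in the pituitary gland, with medians of 39.1 and 32.2 in the bnst against 125 and 43.3 in the pituitary gland. The probe sets of Synpo2 thus disagreed, 2 being high in the bnst and 2 not.

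RNA of a whole region does not tell fewer cells of a type from less RNA per cell. Likewise, cells of the thalamus within the dissected tissue and expression of these genes by cells of the bnst itself cannot be told apart in these arrays. What the arrays do hold is the level of other genes of thalamic neurons on the same arrays, the order of the arrays within the bnst, and the differences between strains and between the other regions.

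Other genes known from thalamic relay and midline neurons were higher in the bnst too. Of a list of 18 such genes, drawn up without the 8 but with earlier results of these data known, 16 were measured, and all 16 were called higher in the bnst than in the mean of the other regions (limma, adjusted p under 0.05 over 44065 probe sets), against 16.0% of all probe sets called higher, 22.6% lower and 38.6% in either direction. The median of their log2 differences was 1.87, beside -0.05 over all probe sets. Plekhg1 differed most, by 3.12 in log2 (SE 0.11, limma adjusted p = 5.79e-23), with signals of 573 to 1734 in the bnst against 114 to 200 in the hippocampus, the next highest by its median. Gbx2, a homeodomain factor needed for the development of the thalamus, had signals of 55.7 to 163 in the bnst, with a median of 87.7, and at most 26.6 elsewhere. Ntng1, a netrin-related protein that guides thalamic axons, had signals of 603 to 1352 in the bnst against at most 353 elsewhere, and the nuclear receptor Rora 1201 to 2638 against at most 798. For 10 of the 16 genes every bnst array lay above every other array, compared with 0.175% of all probe sets. These percentages cover all probe sets, including dim ones and those that name no gene. The comparison is the one on which the 8 genes were chosen, and the list was drawn up with earlier results known. The calls are therefore a description, and nothing is read from their number. The difference also counts the pituitary gland as a region, and it does not mean that the bnst was highest for each gene. Vamp1 had a median of 911 in the bnst against 2233 in the pag, and Calb2 1599 in the bnst against 2016 in the hypothalamus. Slc17a6, the transporter of glutamatergic neurons of the thalamus and hypothalamus, had a median of 1516 in the bnst against 1447 in the hypothalamus and 1399 in the pag, which overlap.

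Genes of the neighbouring tissues moved in the same comparison and are given beside this. Of all probe sets, 16.0% were called higher and 22.6% lower in it, and a gene called higher need not be highest in the bnst. Summed over the 16 thalamic genes, the signals reached 11061 to 18488 in the bnst, 7813 to 9377 in the pag, 6285 to 7649 in the hypothalamus, 3473 to 4197 in the hippocampus and 2200 to 2849 in the pituitary gland. Of 16 measured genes of bnst and ventral forebrain neurons, 13 were higher and 1 (Esr1) lower in the bnst. They included the GABA genes Gad1, Gad2 and Slc32a1 and the peptide Crh, the only one of the 16 with every bnst array above all others (101 to 281 in the bnst against at most 90.1 elsewhere). Their summed signals were 5528 to 9647 in the bnst and 6769 to 8142 in the hypothalamus. Of 11 genes of choroid plexus and ependyma, all were higher, with sums of 445 to 11167 in the bnst against 964 to 6914 in the hippocampus. Of 10 genes of hypothalamic neurons, all of peptides except for the enzyme Hdc, 7 were higher and 2 lower. Their summed signals were 5673 to 12590 in the bnst against 13885 to 22033 in the hypothalamus. All 5 measured genes of the thalamic reticular nucleus, a GABAergic shell around the thalamus, were higher than the mean of the other regions. None of them had every bnst array above the other arrays, and only Pvalb had its highest median in the bnst. The bnst had the highest median for 9 of the 16 forebrain genes, 7 of the 11 choroid plexus genes and 0 of the 10 hypothalamic genes. The habenula, which lies above the thalamus and also uses Tcf7l2, had 2 of 8 genes higher and 2 lower, and its marker Gpr151 lay between 2.73 and 18.9 in the bnst, under or near the floor of 12.8. The part of these tissues in the levels of the 8 genes was not tested.

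Other genes of the canonical Wnt pathway, in which Tcf7l2 and Lef1 act, differed in either direction. Of 23 measured genes other than these, 10 were called higher and 4 lower in the bnst, compared with 16.0% and 22.6% of all probe sets, with a median log2 difference of 0.12. Axin2, a general target gene of the pathway, had medians of 245 in the bnst against 299 in the pituitary gland and 239 in the hypothalamus (0.07 in log2, SE 0.05, limma adjusted p = 0.287). The secreted factor Sfrp2 had a median of 102 in the bnst against 141 in the pag, 99.4 in the hypothalamus, 34.7 in the pituitary gland and 25.9 in the hippocampus, and was called higher by 0.76 against the mean of all of these. Dkk3 had a median of 189 in the bnst against 1132 in the hippocampus, 286 in the hypothalamus, 272 in the pag and 155 in the pituitary gland, and was called lower, at a log2 difference of -0.84. None of the 23 had every bnst array above all others.

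**Figure D2:**
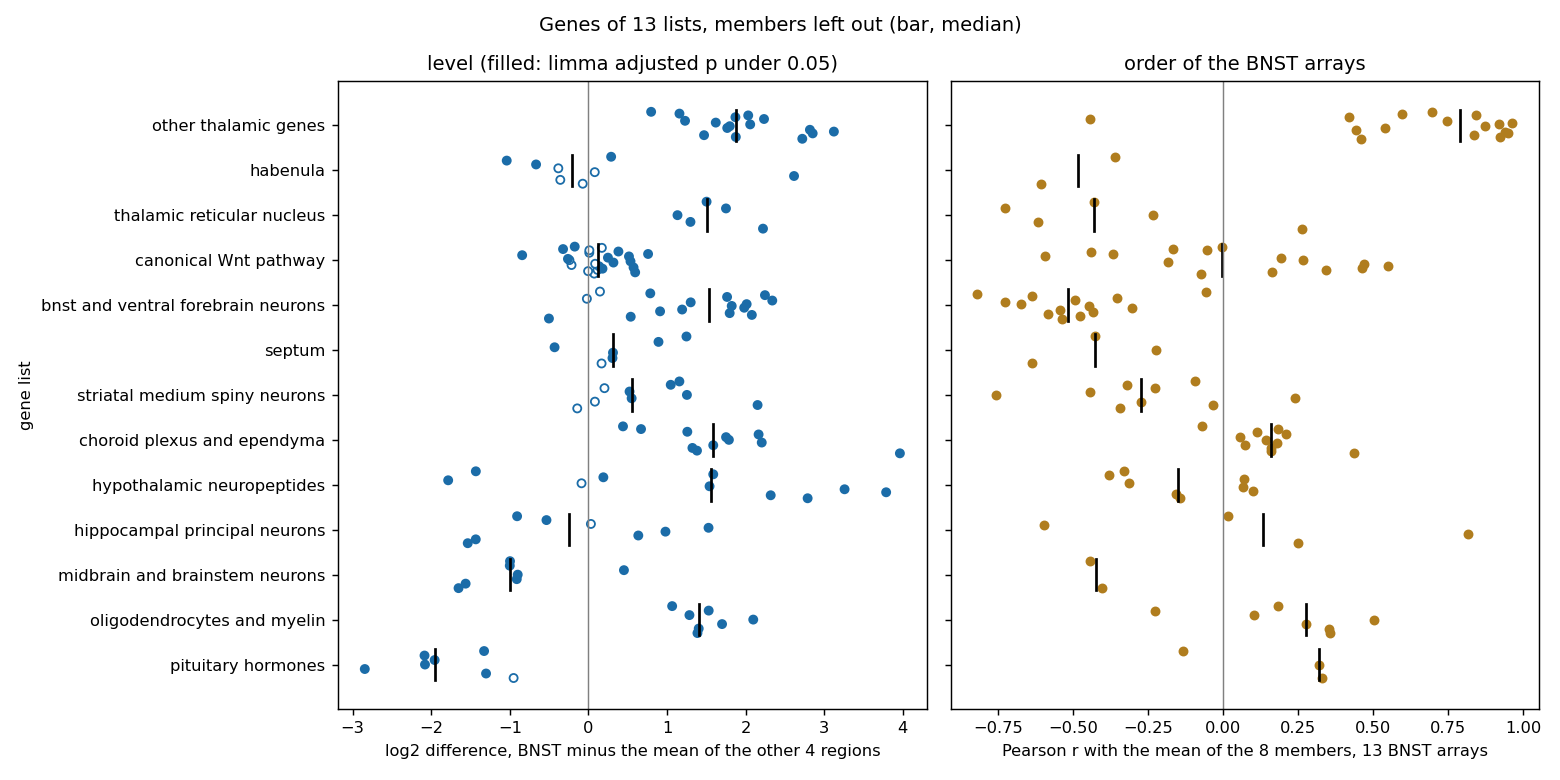
Genes of 13 lists without the 8 genes themselves, 1 dot a gene and a black bar at the median of each list. Left, the log2 difference of the bnst minus the mean of the other 4 regions, filled where called; right, Pearson r with the mean of the 8 genes over the 13 bnst arrays. The 16 other thalamic genes lie to the right of 0 in the left panel and, but for Calb2, in the right panel, with medians of 1.87 and 0.79, while the bnst and ventral forebrain genes have medians of 1.53 and -0.52.

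Within the bnst, the 8 genes varied together from array to array. Pearson r of the log2 signals over the 13 arrays was above 0 for 27 of the 28 pairs, between -0.06 and 0.93, with a median of 0.65. Over all pairs of 11196 genes with a mean bnst signal of at least 50 the median was 0.03, and 5.23% of those pairs had an r of at least 0.6, compared with 15 of the 28. By a two-sided permutation test, 15 pairs had an adjusted p under 0.05 over the 28 pairs computed, and 11 did by Spearman's rho. This test shuffled the 13 arrays regardless of strain and so treats replicates of a strain as independent. A permutation test within strains, given below, had no pair with an adjusted p under 0.05. The closest pair was Synpo2 and Ramp3 (r = 0.93, permutation p = 1e-05, the smallest the 100000 permutations can give, adjusted p = 0.00028; rho = 0.88, permutation p = 0.00018, adjusted p = 0.00252). Prkcd and Synpo2 followed (r = 0.92, permutation p = 2e-05, adjusted p = 0.00028; rho = 0.81, permutation p = 0.00159, adjusted p = 0.0148), and then Prkcd and Ramp3 (r = 0.87, permutation p = 0.00011, adjusted p = 0.00077; rho = 0.70, permutation p = 0.0105, adjusted p = 0.032). By rho, the pair of Zic1 and Rgs16 (0.88) and 5 pairs of Shox2, Lef1 or Tcf7l2 with Synpo2 or Ramp3 (0.72 to 0.76) were closer than Prkcd and Ramp3, so the order of the pairs depends on the measure.

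Zic1 and Rgs16 formed a pair that stood apart from the other 6 genes. They correlated with each other (r = 0.86, permutation p = 0.00011, adjusted p = 0.00077; rho = 0.88, permutation p = 0.00014, adjusted p = 0.00252), but none of the 12 pairs of either with the other 6 genes had an adjusted or an unadjusted p under 0.05, and their median r was 0.30. The 15 pairs among Shox2, Prkcd, Tcf7l2, Lef1, Synpo2 and Ramp3 had an r of 0.48 to 0.93 with a median of 0.73. These groups were drawn after the values had been seen and were not tested against each other. The only r below 0 was that of Tcf7l2 and Rgs16, at -0.06 (permutation p = 0.851; rho = -0.20, permutation p = 0.519), and it was above 0 after the arrays were scaled to 1 median (0.00452) or quantile normalised (0.0122).

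The shared order rested in part on the arrays of C3H/HeJ. Replicate 2 of C3H/HeJ was the highest of the 13 arrays for all 8 genes, and replicate 3 was the lowest for 4 of them and among the lowest 3 for 6. Prkcd, for instance, had signals of 1786, 2618 and 797 on the 3 arrays, and Synpo2 559, 936 and 339. Over the 8 genes, replicate 2 was between 1.38 times (Tcf7l2) and 3.29 times (Prkcd) replicate 3, with a median of 2.23. Replicate 3 also had the lowest Ttr, at 121 against 590 to 8514 on the other 12 bnst arrays, and the highest Gad1, at 2679. Its signals over all probe sets had the lowest mean correlation with the other bnst arrays, 0.976, while the others lay between 0.977 and 0.983.

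Without replicate 2 of C3H/HeJ, 6 of the 28 pairs had an adjusted p under 0.05, and the median r was 0.47. Without all 3 arrays of C3H/HeJ, 5 pairs did, and the median was 0.36. When the 2 arrays farthest from the median of the first gene of a pair were left out, which for most pairs were replicates 2 and 3 of C3H/HeJ, the median r was 0.37 and the lowest -0.58. Among the 15 called pairs r was then 0.18 (Prkcd and Lef1) to 0.85 (Synpo2 and Ramp3), and it was 0.79 for Zic1 and Rgs16, so the relation rests in part on those arrays. Within the 7 arrays of 2 pooled mice the median r was 0.56, and within the 6 arrays of 3 pooled mice it was 0.66.

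**Figure D3:**
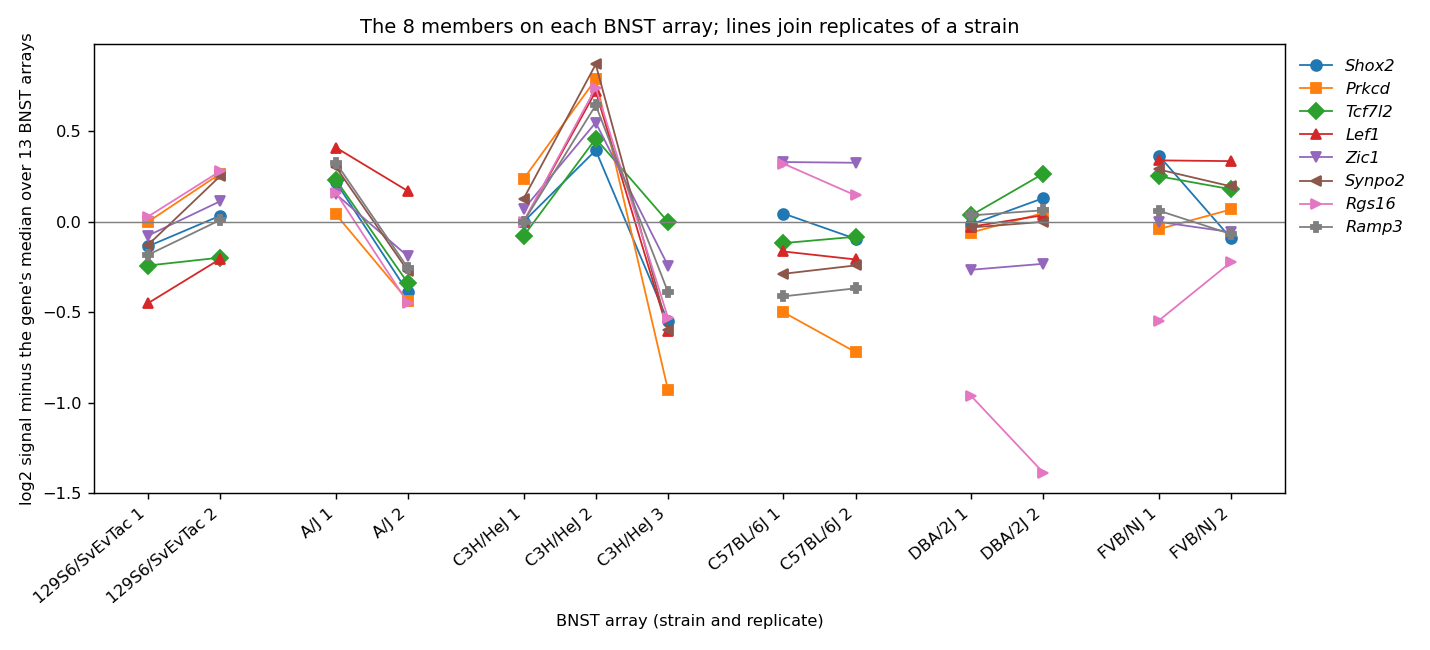
The 8 genes on each of the 13 bnst arrays, as log2 signal minus the gene's own median over these arrays, with lines joining replicates of a strain. All 8 genes are at their highest on C3H/HeJ replicate 2 and lower on replicate 3, both A/J arrays differ the same way for all 8 genes, and Rgs16 is at its lowest in DBA/2J.

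Within each strain, the bnst array with the highest mean of the 8 standardised genes was set against the one with the lowest. That choice uses the same 8 genes, so a majority of them being higher there is largely built in. Nothing is read from the counts alone. In A/J, replicate 1 was higher than replicate 2 for 8 of 8 genes, by 1.18 times for Lef1 up to 1.53 times for Rgs16. In 129S6/SvEvTac, replicate 2 was higher for 8 of 8, by 1.03 times for Tcf7l2 up to 1.3 times for Synpo2. The direction was shared by 7 genes in DBA/2J (median ratio 1.03), by 6 in FVB/NJ (1.05) and by 5 in C57BL/6J (1.02). The higher replicate pooled 3 mice in 129S6/SvEvTac, C3H/HeJ and DBA/2J and 2 mice in A/J, C57BL/6J and FVB/NJ. The summed signal of the 16 other thalamic genes was ordered the same way in 5 of the 6 strains, as in A/J with 14776 and 11061, and the exception was FVB/NJ with 13312 and 13404. The standard deviation within strains was 0.23 (Tcf7l2) to 0.50 (Prkcd) in log2 in the bnst, against a median of 0.15 over all genes there. Such a spread was not particular to the bnst. In the hippocampus, where all 8 genes had lower signals, it was 0.215 (Prkcd) to 0.554 (Rgs16), against a median of 0.145 over all genes. Only Prkcd and Shox2 (0.321 against 0.333) spread less there than in the bnst.

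Taken as deviations from the mean of their strain, the genes were closer to each other than in the signals themselves. The r of the deviations was 0.605 to 0.993 over the 28 pairs, with a median of 0.90, against a median of 0.03 over all pairs of genes, and 22 of the 28 pairs reached 0.8, as 1.99% of all pairs did. An exact permutation test of the 192 orders of the arrays within strains gave a p under 0.05 for 11 pairs and an adjusted p under 0.05 for none, the smallest p it allows being 0.00521. Zic1 and Rgs16 were no longer apart, since their deviations correlated with those of the other 6 genes at a median r of 0.90. Without the C3H/HeJ arrays the median over the 28 pairs was 0.83 and the lowest r was 0.33, for Shox2 and Rgs16. Each remaining strain had 2 bnst arrays, whose deviations mirror each other, so this r rests only on the replicate difference of each strain. The values over all pairs of genes include C3H/HeJ and are no background for this subset.

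**Figure D4:**
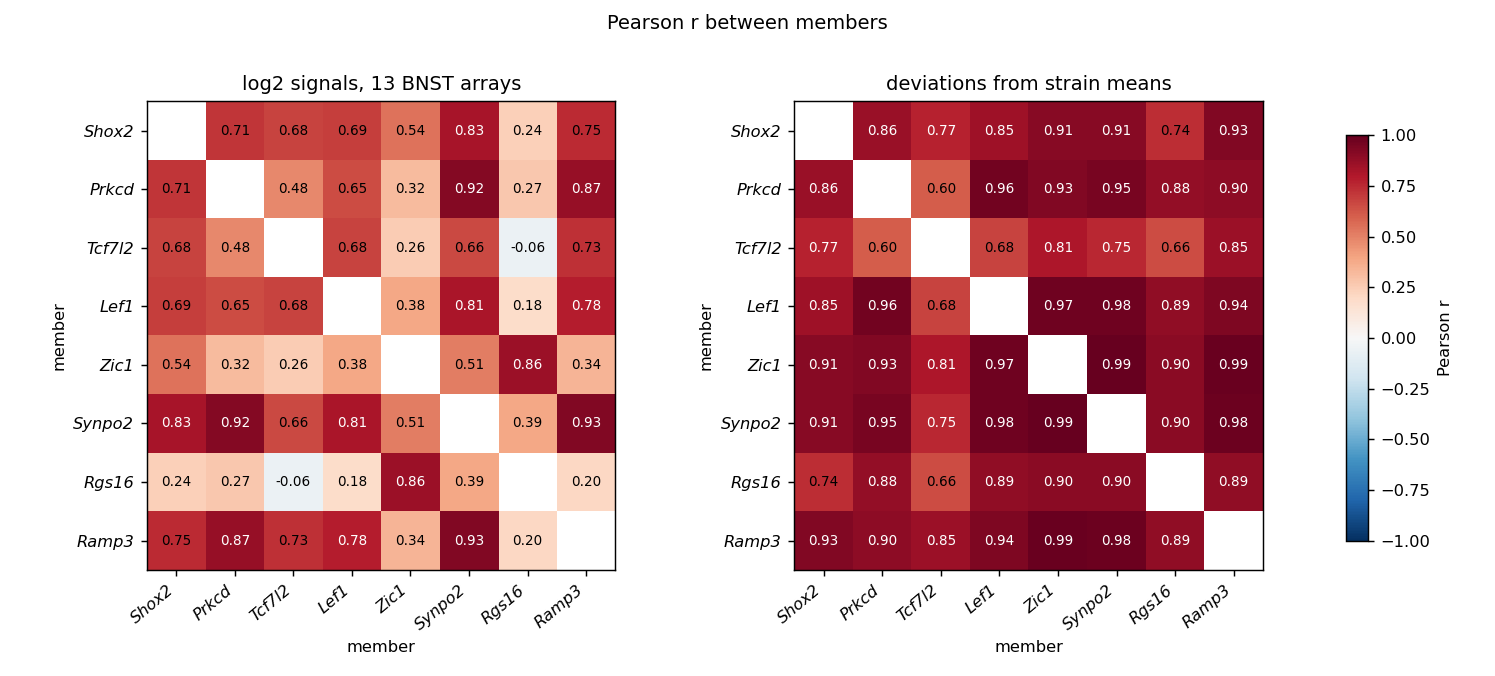
Pearson r for the 28 pairs of the 8 genes over the 13 bnst arrays, in log2 signals (left) and in deviations from the strain means (right), on a colour scale from -1 to 1. On the left, Zic1 and Rgs16 correlate with each other at 0.86 and with the other genes less closely (-0.06 to 0.54), and on the right all pairs lie between 0.605 and 0.993.

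The genes most like the 8 over the bnst arrays, by r with the mean of the 8 standardised genes, were Ptpn4 (0.96), Patj (0.95), Ntng1 (0.95), Plekhg1 (0.94), Shank3 (0.93), Sh3bgrl2 (0.93), Vav3 (0.93), AI593442 (0.93), Kitl (0.92) and Rora (0.92). Ptpn4, Ntng1, Plekhg1 and Rora are among the 16 other thalamic genes, whose r with that mean had a median of 0.79 and ranged from -0.44 for Calb2 to 0.96, beside a median of -0.03 over 11188 genes. The list of bnst and ventral forebrain neurons ran the other way, with r of -0.82 (Dlx5) to -0.06 and a median of -0.52 over 14 genes. Over all 61 arrays the most similar genes were Rora (0.96), Nexn (0.95), Gbx2 (0.94), Gjc1 (0.90), Ptpn4 (0.89), Rgs3 (0.89), Tmem41a (0.89), Fhdc1 (0.88), Tnnt1 (0.87) and Plekhg1 (0.87). Over all arrays, the mean of the 8 genes follows the difference of the bnst from the other regions, on which they were chosen. Genes compared with it also needed a mean signal of at least 50 in the bnst. This favours genes high in the bnst, so nothing is read from the list over all arrays. The values over the bnst arrays and over all arrays describe likeness, share the arrays and were given no test.

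Slc17a6, itself one of the 16 thalamic genes, and 6 marker genes of other cells were correlated with the 8 genes singly over the bnst arrays. Of the 56 pairs none had an adjusted p under 0.05 by permutation, while 11 had an unadjusted p under 0.05, 6 of them with Slc17a6, and 6 pairs were called after the arrays were scaled to 1 median and 4 with the replicate number as a block. Slc17a6 came closest, with an r of 0.48 to 0.80 with all 8 genes and a median of 0.65. Its signals were 1887 on replicate 2 of C3H/HeJ and 1439 on replicate 3, against 1293 to 1697 on the other arrays. Gad1, of GABAergic neurons, had a median r of -0.27 with the 8 genes, which was 0.76 in the deviations without C3H/HeJ. Ttr had a median of 0.45, which became -0.54 in those deviations, and Ppp1r1b, of striatal neurons, had a median of -0.04. Pmch of the lateral hypothalamus (0.11) and myelin Mbp (0.37) had medians above 0. In the deviations without C3H/HeJ the median of Pmch was -0.745, so those of Ttr, Gad1 and Pmch changed sign. That of Slc17a6 was 0.86 and that of Mbp 0.49. The medians without C3H/HeJ rest only on the replicate difference of each remaining strain and were given no test. Nothing is read from the r of Gpr151, which lay at or near the floor on the bnst arrays. As whole lists, by r with the mean of the 8 genes, the 8 hypothalamic peptide genes with a mean bnst signal of at least 50 had a median of -0.15 and the 2 habenula genes, Tac2 and Nwd2, -0.61 and -0.36.

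**Figure D5:**
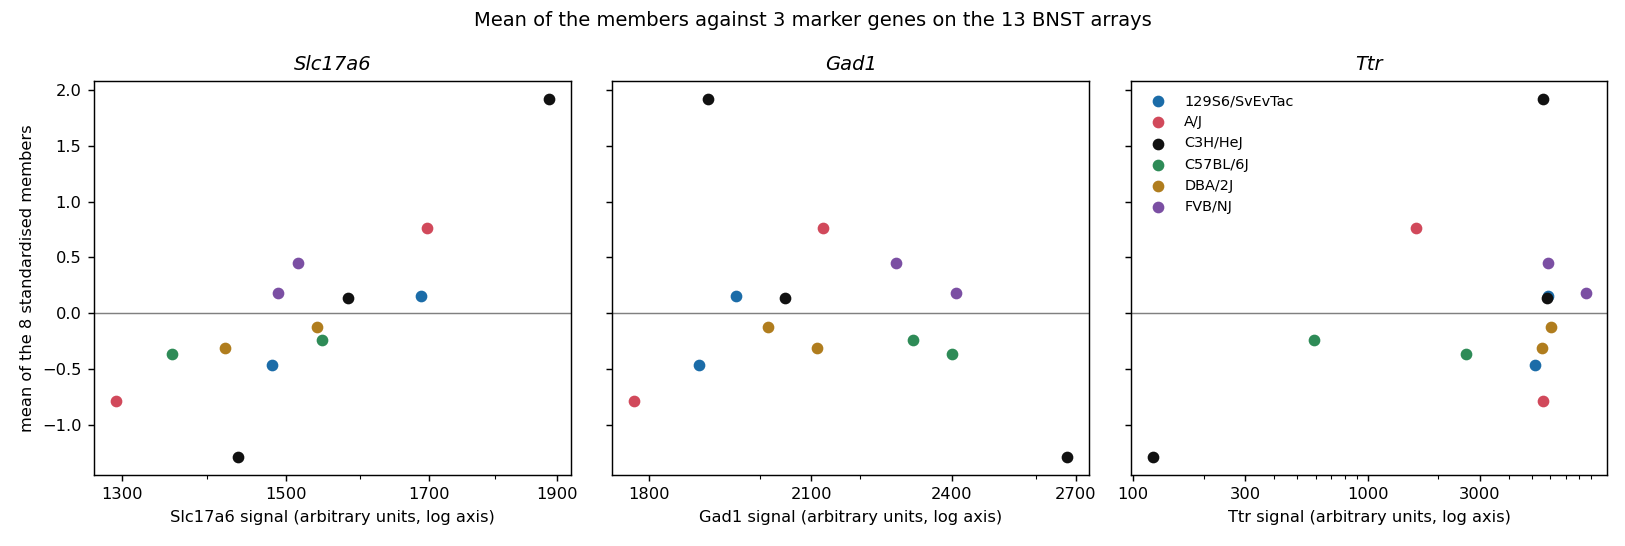
Mean of the 8 genes, each standardised over the 13 bnst arrays, against the signals of Slc17a6, Gad1 and Ttr on log axes, coloured by strain. The highest array, C3H/HeJ replicate 2, has the highest Slc17a6 (1887), and the lowest, C3H/HeJ replicate 3, has the highest Gad1 (2679) and the lowest Ttr (121).

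By its brightest probe set, none of the 8 genes was called for a strain difference in the bnst by limma's F test at an adjusted p under 0.05, whereas 19.3% of all probe sets were called. Of the other 12 probe sets, 2 were called, both of Tcf7l2, with ranges between strain means of 1.24 (adjusted p = 0.035, limma) and 1.39 (adjusted p = 0.0229, limma) against 0.44 for the brightest (adjusted p = 0.722, limma). On the first of them Tcf7l2 had signals of 341 and 384 in DBA/2J against 149 and 157 in C57BL/6J, and on the dimmer one 129 and 127 in DBA/2J against 44.3 and 54.0 in 129S6/SvEvTac. The probe sets of Tcf7l2 thus disagreed on strain in the bnst. The paper states that sequence differences between strains within a probe could alter hybridisation and so the measured signal. Whether this holds for the strain differences of Tcf7l2, Rgs16 or the other genes given here was not tested. Rgs16 had the widest range between strain means, 1.41 in log2, with an adjusted p of 0.0963 (limma), and was the only 1 of the 8 brightest probe sets with an unadjusted p under 0.05. It was called with a pseudocount in place of the floor (adjusted p = 0.00611, limma), by regression on the signals (adjusted p = 0.00203) and with the mean of all its probe sets (adjusted p = 0.0105, limma). Its signals were 263 and 196 in DBA/2J and 352 and 440 in FVB/NJ, against 642 and 568 in C57BL/6J, so DBA/2J held the lowest arrays of the bnst. Prkcd had signals of 1072 and 920 in C57BL/6J against 1455 to 1824 in 129S6/SvEvTac, DBA/2J and FVB/NJ. The range of its strain means was 0.74 (adjusted p = 0.391, limma), and it became 1.12 (adjusted p = 0.0187, limma) without replicate 3 of C3H/HeJ. Ranges for the other genes were 0.22 for Shox2 to 0.67 for Lef1, with adjusted p of 0.722 to 1 (limma).

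Outside the bnst, in the mean of the hippocampus, the hypothalamus and the pag, Tcf7l2 and Rgs16 differed between strains, 2 of the 8 genes, against 21.5% of all probe sets, and all their other probe sets were called too (adjusted p = 0.00919 to 0.0411, limma). A dim probe set of Synpo2 was also called (0.93, adjusted p = 0.02, limma), unlike the other 3 of that gene. For Rgs16, the range of strain means in the mean of these brain regions was 1.22 (adjusted p = 0.00335, limma). In the hypothalamus, which was not tested alone, DBA/2J had the lowest Rgs16 as well, with signals of 97.8 and 95.6 against 128 to 233 in the other strains. Zic1 was not called (0.78, adjusted p = 0.205, limma), but was without the pag array of replicate 2 of 129S6/SvEvTac (1.22, adjusted p = 0.00139, limma), since replicate 1 was at 58.3 and replicate 2 at 359. For Rgs16 in the pituitary gland, which that test did not use, DBA/2J was again lowest, at 68.4 and 85.9 against 102 to 380. The difference of strains in the bnst from that in the other brain regions was not called for any of the 8 genes (adjusted p of 0.433 to 1, limma; no unadjusted p was under 0.05), with 0.499% of all probe sets called.

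For Tcf7l2, the range of strain means in the mean of the hippocampus, the hypothalamus and the pag was 0.85 (adjusted p = 0.00219, limma). Its strain means lay farthest apart in the pag, which was not tested alone. There it was at 711 and 856 in A/J and 454 and 601 in DBA/2J, against 176 to 430 in the other 4 strains. The pag of A/J was thus at the level of the bnst, where A/J had 773 and 520. Genes of the habenula moved with this on a pair of arrays. The 8 genes of the habenula list summed to 2055 on replicate 2 of A/J and 1090 on replicate 2 of DBA/2J, against 362 to 634 on the other 10 pag arrays, and Gpr151 was at 186 and 109, against 1.3 to 30.4. The same arrays had the highest Zic1 of the pag, 681 and 518, but not the highest Shox2 (307 and 366, within 224 to 408 on the other arrays). Replicate 2 of A/J was the only pag array that held 1 mouse. Replicate 1 of A/J, a pool of 2 mice, had a habenula sum of 502. Without those 2 arrays Tcf7l2 and Rgs16 were still called (adjusted p = 0.015 and 0.0362, limma).

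Between the hypothalamus, the pag and the hippocampus, comparisons that the choice of the genes did not use, the 8 genes did not share a direction. The hypothalamus over the hippocampus had 6 called genes, against 36.8% of all probe sets, with Zic1, Rgs16, Tcf7l2 and Synpo2 higher (21.3% of all probe sets were) and Prkcd and Ramp3 lower (15.6%). Zic1 was higher in the hypothalamus, by 2.23 in log2 (SE 0.20, limma adjusted p = 5.69e-12), as was Rgs16, by 2.20 (SE 0.18, limma adjusted p = 6.34e-13). Prkcd was lower in the hypothalamus, at -0.75 (SE 0.13, limma adjusted p = 7.26e-06). The call of Ramp3 (-0.33, adjusted p = 0.0424, limma) was lost when any 1 of several single arrays was left out (adjusted p = 0.0522 to 0.135, limma) and with a pseudocount in place of the floor (adjusted p = 0.0873, limma). Other probe sets were not called in this comparison for Prkcd (-0.24), for 1 of Tcf7l2 (0.12) and for 2 of Synpo2 (0.07 and 0.17).

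The pag over the hippocampus also had 6 called genes, 5 higher and 1 lower, with 42.2% of all probe sets called, 25.0% as higher and 17.2% as lower. Shox2 was higher in the pag by 4.36 in log2 (SE 0.14, limma adjusted p = 8.51e-25), with signals of 224 to 408 in the pag against -2.93 to 22.2 in the hippocampus, where most lie at or near the floor of 12.8, so the difference depends on that floor. Tcf7l2 was higher by 2.94 (SE 0.11, limma adjusted p = 1.77e-22), Zic1 by 1.07, Lef1 by 0.86 and Synpo2 by 0.70, and Prkcd was lower, at -0.54. The other probe sets of Lef1 (0.42), Synpo2 (-0.16, 0.37 and 0.37) and Prkcd (0.06) were not called. The hypothalamus over the pag had 5 called genes, against 26.2% of all probe sets (12.9% higher, 13.3% lower). Rgs16 and Zic1 were higher in the hypothalamus, by 2.58 and 1.16, and Shox2, Tcf7l2 and Ramp3 lower, at -4.40, -1.84 and -0.60. Prkcd (-0.21), Lef1 (-0.41) and Synpo2 (-0.05) were not called there, although a dim probe set of Synpo2 was (0.59, adjusted p = 0.00655, limma). The 3 comparisons share arrays, and the order of the regions below the bnst was thus the pag first for Shox2 and Tcf7l2, the hypothalamus for Zic1, and the pituitary gland by its medians for Rgs16 and Ramp3, which was not tested. Of the 8 genes in the 5 regions, Zic1 in the pag varied most between replicates, with signals of 58.3 to 681 and a standard deviation within strains of 1.02 in log2, against a median of 0.15 over all genes there.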

How the data were processed

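RNA of 5 regions of 6 inbred strains was hybridised to 61 Affymetrix mouse 430 2.0 arrays. The deposited values are 1 intensity per probe set on a linear scale, which the authors made from the image files in the TeraGenomics system and scaled per array. The version and the target of the scaling are not given in the sources used here, and 5.36% of values were below 0. No comparison columns were among the deposited values, and 0 columns were left unmapped. Genes came from the platform annotation in GEO, in which 34945 probe sets name 1 gene, 932 several and 9160 none. The 64 control probe sets were left out.

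Signals below 12.8, the 20th percentile over all arrays, were set to 12.8 before log2 was taken, and 972 probe sets at this floor on all arrays were left out. limma 3.58.1 (R 4.3.3, lmFit and eBayes with a trend) was fitted to the other 44065, each combination of strain and region (30 in all) having its own mean, and p values were adjusted by Benjamini and Hochberg over all of them. Strains were compared by F tests in the bnst, in the mean of the hippocampus, hypothalamus and pag, and in the difference of both, whose range is that of the strain means. Correlations over the 13 bnst arrays were tested with 100000 permutations regardless of strain, two-sided, and adjusted over the pairs computed (Python 3.11.15, scipy 1.17.1). The limma comparisons of strains in the bnst and of the hypothalamus with the hippocampus and the pag were checked on simulated data. So was the permutation test of the correlations. Replicate numbers were not treated as pairs in the main fit. Differences of replicate 1 minus replicate 2 correlated at -0.327 to 0.412 over 60 pairs of regions of a strain, above 0.1 in 13. Over all 435 pairs of groups, 80 were above 0.1. These values cannot tell whether arrays with the same number came from the same mice.

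The 8 genes, the gene lists and the tests were chosen with earlier results of these data known. The genes named are the 8, the members of the lists, and the 10 genes most like the 8 over the bnst arrays and over all arrays, among probe sets with a mean of at least 50 in the bnst. The lists cover thalamic relay, reticular, habenular, bnst and ventral forebrain, septal, striatal, hypothalamic, hippocampal, midbrain, choroid plexus, myelin and pituitary genes and the Wnt pathway. Alternatives were another floor (10th percentile, 4.62), a pseudocount of 32, scaling to 1 median, quantile normalisation, a filter on dim probe sets (mean of 50), regression on the signals, the mean of all probe sets of a gene, the replicate number as a block, and leaving out arrays. The number of arrays limits the precision. Promoter windows came from RefSeq (GRCm38.p6). Probe and protein sequences were not used here.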

Additional observations from a re-analysis of the deposited data

How the results depend on the processing

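The 16 other thalamic genes were called higher in the bnst under all alternatives run except regression on the signals (15), and no gene was called for the difference of strains between the bnst and the other regions under any. The medians of all probe sets moved by less than 0.1 in log2 between scalings. Strain differences within the bnst, with 0 called genes, had 1 with a pseudocount of 32 and with regression on the signals (Rgs16 in both), 2 with the mean of all probe sets of a gene (Rgs16 and Tcf7l2), and 1 with the replicate number as a block and without replicate 3 of C3H/HeJ (Prkcd in both). Outside the bnst 1 gene was called by regression on the signals in place of 2, and in the hypothalamus over the hippocampus 2 in place of 6. The cause was not tested. With single arrays left out, the counts of called genes were 0 to 1 within the bnst, 2 to 3 outside it, 5 to 7 for the hypothalamus over the hippocampus, 6 to 8 for the pag over the hippocampus, and 5 to 6 for the hypothalamus over the pag.

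Of the 28 pairs of genes, 6 to 16 were called with 1 bnst array left out, and the median r was 0.468 to 0.687, the lowest of both without replicate 2 of C3H/HeJ. For the deviations from the strain means, the median r was 0.772 to 0.937. Without all 3 C3H/HeJ arrays, chosen after seeing the data, 5 pairs were called with a median of 0.361. Of the 56 pairs with marker genes, 6 were called after scaling to 1 median, 3 on the signals as deposited and 4 with the replicate block, and 0 to 4 with 1 array left out (4 without replicate 2 of A/J, 3 without replicate 1 of C57BL/6J and 1 without replicate 3 of C3H/HeJ).

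With the replicate block, 12 pairs of the 28 were called with a median r of 0.575, and the hypothalamus over the hippocampus had 7 called genes. The block left the counts of the other region comparisons, of the strains outside the bnst and of the interaction as they were.

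Values that changed sign were all short of the threshold. Shox2 in the hypothalamus over the hippocampus (-0.03) became 0.30 with the lower floor, 0.11 with the pseudocount and 3.42 signal units by regression, and lay between -0.1321 and 0.06369 with 1 array left out. Synpo2 in the hypothalamus over the pag (-0.05) became 0.0325 with quantile normalisation and 0.01012 with the mean of all probe sets, and lay between -0.1363 and 0.03002 with 1 array left out. The r of Tcf7l2 and Rgs16 became 0.00452 after scaling to 1 median, 0.0122 with quantile normalisation, 0.114 on the signals as deposited, 0.0132 without replicate 2 of 129S6/SvEvTac and 0.177 without replicate 2 of DBA/2J, and that of Tcf7l2 and Zic1 became -0.0515 with the mean of all probe sets. Without replicate 2 of C3H/HeJ, r was -0.0576 for Prkcd and Zic1, -0.0148 for Prkcd and Rgs16, -0.12 for Tcf7l2 and Zic1, -0.122 for Lef1 and Rgs16, -0.145 for Zic1 and Ramp3 and -0.203 for Rgs16 and Ramp3. The highest r of these pairs with another single array left out were 0.54, 0.425, 0.391, 0.25, 0.536 and 0.347, in the same order. Without the 3 C3H/HeJ arrays it was -0.104 for Shox2 and Rgs16, -0.44 for Prkcd and Zic1, -0.214 for Prkcd and Rgs16, -0.116 for Tcf7l2 and Zic1, -0.186 for Lef1 and Zic1, -0.262 for Lef1 and Rgs16, -0.0859 for Zic1 and Synpo2, -0.349 for Zic1 and Ramp3, -0.031 for Synpo2 and Rgs16 and -0.316 for Rgs16 and Ramp3. Of the other single values, 2364 kept their direction and side of the threshold, 38 passed it and 57 no longer did. Without the 2 pag arrays high for habenula genes, also chosen after seeing the data, no count of called genes outside the bnst changed. Signals at or near the floor, as for Shox2 and Gbx2 outside the bnst, set the size of their differences.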

Other observations

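Other lists followed the order of the bnst arrays to different degrees, as described by r with the mean of the 8 genes. The medians were -0.43 over 5 genes of the thalamic reticular nucleus, of which parvalbumin had the highest at 0.26, -0.27 over 9 striatal genes, 0.16 over 11 choroid plexus genes and 0.28 over 7 myelin genes. Over 4 genes of hippocampal principal neurons the median was 0.13, with Ddn at -0.60, Wipf3 at 0.02, Prox1 at 0.25 and Slc17a7, a vesicular glutamate transporter of cortical neurons, at 0.82. The septal, midbrain and pituitary lists had 3, 2 and 3 genes with a mean signal of at least 50 in the bnst, with medians of -0.43, -0.42 and 0.32. In the comparison of the bnst with the other regions, 7 of 7 myelin genes, 6 of 9 striatal genes and 4 of 6 septal genes were higher, 6 of 7 midbrain genes were lower, and 3 of 8 hippocampal genes were higher and 4 lower, compared with 16.0% of all probe sets higher and 22.6% lower. These differences count the pituitary gland as a region, and the 7 myelin genes had summed signals of 12690 to 17165 in the bnst, against 352 to 5119 there. In the pag the sum was 13445 to 16339.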
